A study of Mus musculus with 19 samples.

Results

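The 8 genes described here build and load MHC class II, the surface complex through which a cell shows peptides to CD4 T cells. They were H2-Aa, H2-Ab1, H2-Eb1, H2-DMa, H2-DMb1, H2-Oa, Cd74 and Ciita, chosen by name for their textbook role, and all 8 were among the 50854 genes of the count table. Their expression was followed in 19 bulk RNA-seq libraries, prepared from sorted marrow monocytes of female REP mice aged 8 to 12 weeks, which carry fluorescent reporters for chemokine receptors, CCR1 and CCR2 among them. Resting mice gave 4 libraries of monocytes positive for both CCR1 and CCR2 (CCR1/2+ve) and 4 of monocytes positive for CCR2 only (CCR2+ve). Inflamed mice carried a pump under the skin that released IL-3, IL-6, GM-CSF and IFN-α for 7 days, and gave 3 CCR1/2+ve libraries (replicates 2, 3 and 4), 4 CCR2+ve libraries and 4 libraries labelled CCR1. The sources do not say whether the resting mice carried a pump, whether resting and inflamed libraries were prepared together, or whether a replicate was 1 mouse or a pool, so the p-values below measure the spread between libraries, which may be technical.

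A class II molecule is a pair of an α and a β chain: H2-Aa and H2-Ab1 encode the chains of I-A, and H2-Eb1 encodes the β chain of I-E. The α chain of I-E is not among the members. H2-Ea had no row in the count table, and H2-Ea-ps had 0 reads over the 19 libraries. Newly made pairs are held by the invariant chain, encoded by Cd74, which fills the peptide groove and guides them to endosomes. There H2-DM, the product of H2-DMa and H2-DMb1, exchanges the invariant chain remnant for antigen peptides, and H2-O, of which H2-Oa encodes the α chain, restrains H2-DM. Ciita encodes the class II transactivator, which has no DNA binding of its own and joins the RFX, CREB and NF-Y proteins assembled on the X and Y boxes of class II promoters. Dendritic cells and B cells express these genes strongly, and monocytes express them at lower and variable levels.

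In the GRCm38 genome, 6 of the genes sit together on chromosome 17: H2-Oa (ENSMUSG00000024334, 34092340 to 34095234), H2-DMa (ENSMUSG00000037649, 34119541 to 34139101), H2-DMb1 (ENSMUSG00000079547, 34153072 to 34160230), H2-Ab1 (ENSMUSG00000073421, 34257689 to 34269419), H2-Aa (ENSMUSG00000036594, 34282744 to 34287823) and H2-Eb1 (ENSMUSG00000060586, 34305867 to 34316674). All are on the plus strand except H2-Aa. Cd74 (ENSMUSG00000024610) is on chromosome 18, 60803848 to 60812652, and Ciita (ENSMUSG00000022504) on chromosome 16, 10480059 to 10528418. Some of their reads cannot be assigned with certainty. H2-DMb1 shares 29.2% of its 35-base stretches with its near copy H2-DMb2, and reads that align equally well to both were not counted. H2-Oa overlaps BC051537 on the opposite strand over 22.8% of its exonic bases, and H2-DMa overlaps Brd2 in the same way over 10.4%. The strand used in counting is not given in the sources used here, so reads of those overlaps cannot be told apart.

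Each library held between 22268658 and 30502009 reads on genes (median 23706580). Levels are given as CPM, a gene's reads per 1000000 reads on genes after TMM scaling, which corrects each library for its composition (factors 0.899 to 1.27). The 4 libraries labelled inflamed CCR1 went against the monocyte label. Ccr2 was at 4.04 to 9.57 CPM there against 1070 to 1370 CPM in inflamed CCR2+ve libraries, Csf1r was at 13.7 to 24 against 1380 to 1740 CPM, and Ngp, a neutrophil granule gene, was at 69600 to 101000 against 101 to 157 CPM. Their 8 neutrophil markers summed to 92700 to 136000 CPM, and those of the other 15 libraries to between 535 and 2860 CPM. The source protocol describes only the CCR1/2 and CCR2 sorts, so these libraries are called by their label and kept apart from the others.

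**Figure D1:**
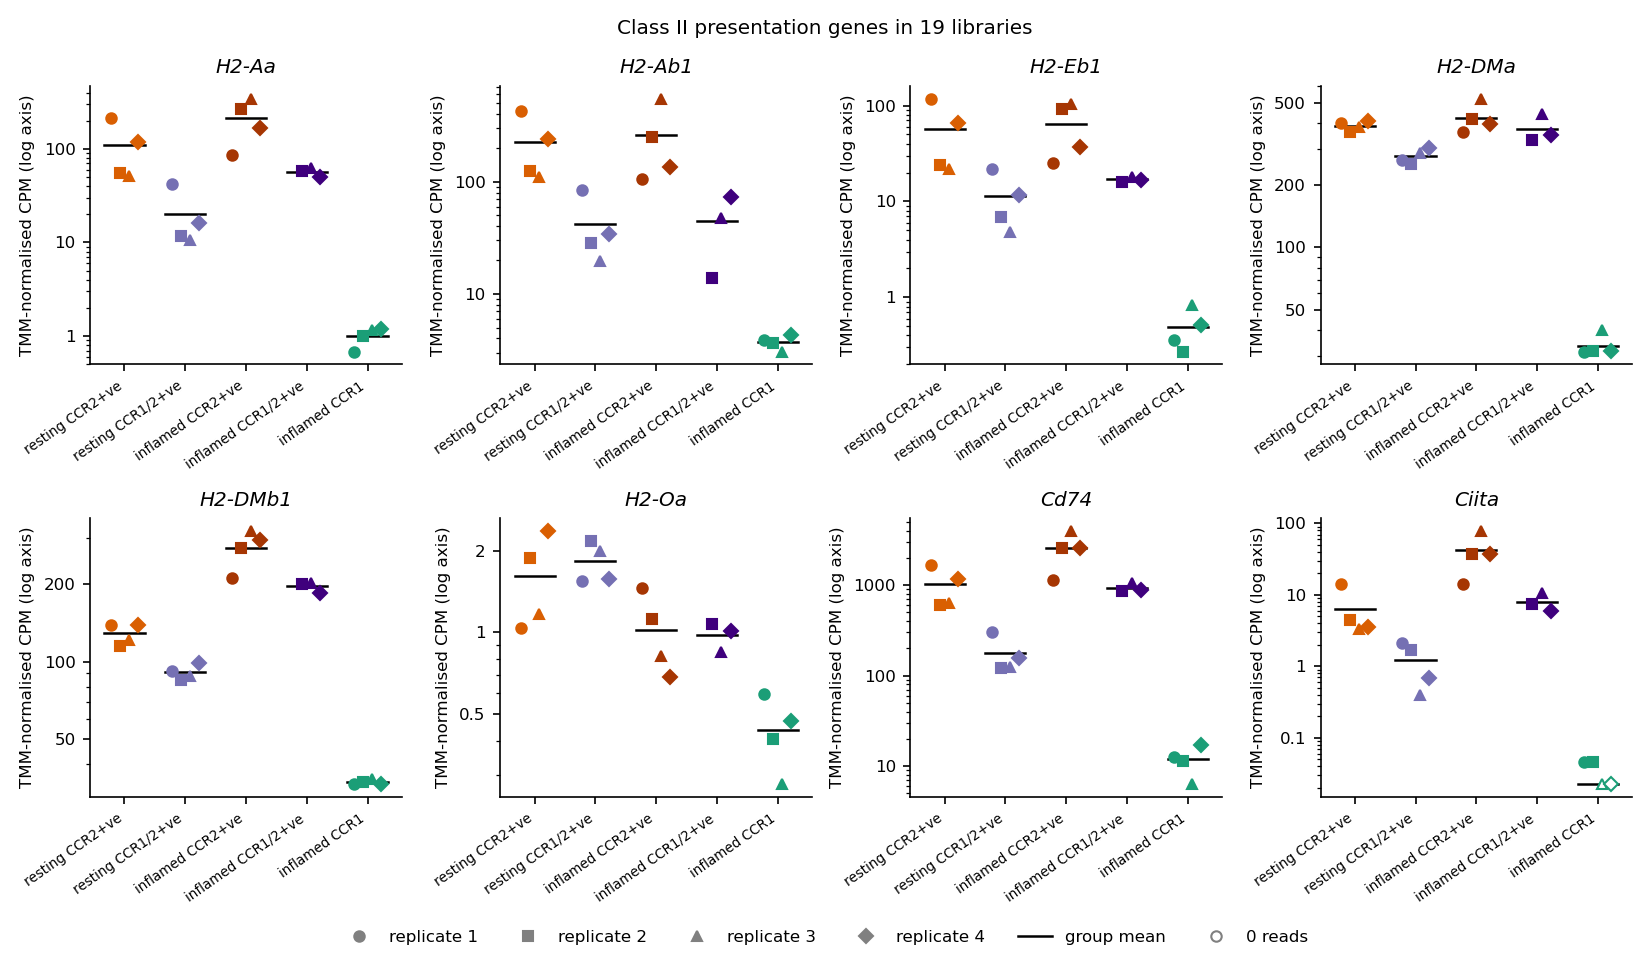
Expression of the 8 class II presentation genes in 19 libraries, in TMM-scaled CPM on a log axis, with a marker shape for each replicate number, a black line at each group mean, and open markers for libraries with 0 reads of Ciita, which are drawn below the lowest value. For 7 of the 8 genes, H2-Oa excepted, every resting CCR1/2+ve library lies below every resting CCR2+ve library, and the inflamed CCR1 libraries are the lowest of all for each gene.

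Promoter sequences were searched for X and Y boxes in front of the start sites. RefSeq windows of the GRCm38.p6 build, 250 bases before to 50 after the start site, matched 5 of the 8 members (6 windows, with 2 for H2-DMa). H2-Ab1, Cd74 and Ciita were not matched. On both strands, the windows were searched for a Y box (ATTGG, the core bound by NF-Y) and an X box, the element bound by RFX. An X box of 9 letters, CCNAGNNAC, followed on the same strand by a Y box within 40 bases, was present in H2-Oa and H2-DMb1, and in 0.691% of 32851 promoter windows of all genes. A looser X box, CNNGNAAC, which overlaps the first and was written after the windows had been read, gave this pair in H2-Aa, H2-Eb1, H2-DMb1 and H2-Oa, with 27 or 28 bases between the boxes, and in 1.6% of all windows. Single boxes were common, with the Y box in 37.4%, the 9-letter X box in 17.3% and the looser X box in 39.1% of all windows. Neither H2-DMa window held the pair of letters, and nothing follows from that for binding. The looser X box was written with these windows in view, so its 1.6% is no test of them. The stretch from 110 to 21 bases before the start site is printed below for the 4 genes that held the pair. It runs 5′ to 3′, with the looser X box and the Y box in capitals. These genes are printed because they held the pair, which is thus not a finding about the members as a set.
H2-Aa, chr17:34287844-34287933, minus strand: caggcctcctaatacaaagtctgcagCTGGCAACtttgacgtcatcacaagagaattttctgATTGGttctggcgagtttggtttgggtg
H2-Eb1, chr17:34305757-34305846, plus strand: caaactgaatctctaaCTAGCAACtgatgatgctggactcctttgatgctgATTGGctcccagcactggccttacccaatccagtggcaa
H2-DMb1, chr17:34153081-34153170, plus strand: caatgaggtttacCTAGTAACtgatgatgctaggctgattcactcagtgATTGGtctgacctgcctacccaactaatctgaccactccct
H2-Oa, chr17:34092269-34092358, plus strand: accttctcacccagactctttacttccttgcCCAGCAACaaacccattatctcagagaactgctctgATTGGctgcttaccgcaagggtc

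**Figure D2:**
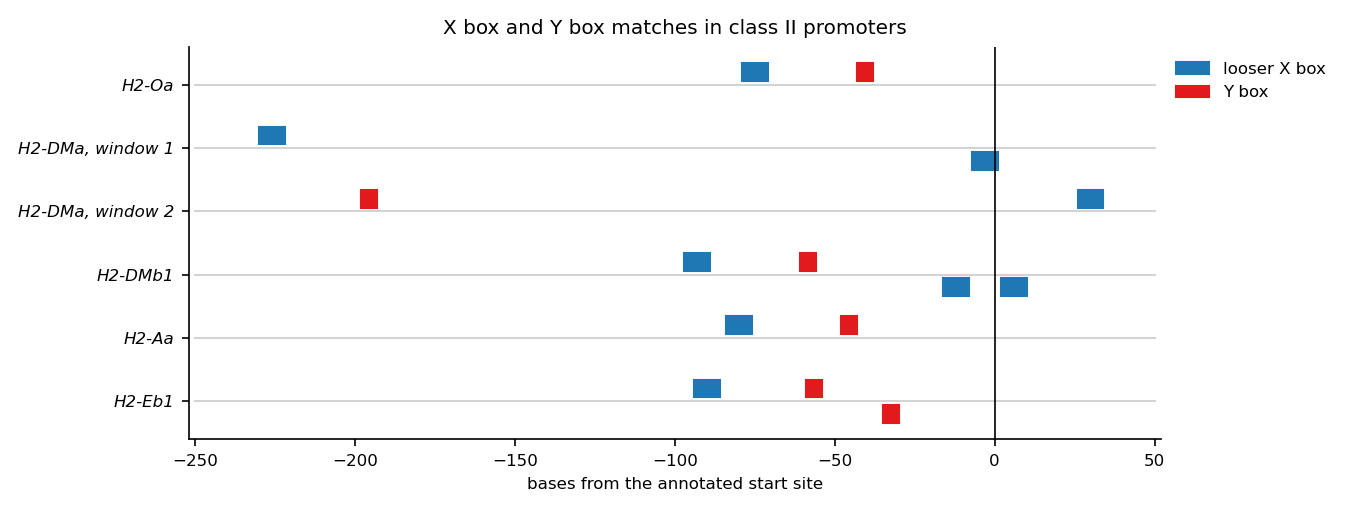
Matches to the looser X box (blue) and the Y box (red) in 6 promoter windows of class II presentation genes, by distance in bases from the annotated start site (vertical line). Marks above a line are on the strand of the gene and marks below it on the other strand. In H2-Oa, H2-DMb1, H2-Aa and H2-Eb1 a blue mark is followed by a red one after 27 or 28 bases, between 97 and 39 bases before the start site.

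To compare members with each other, reads were divided by exonic length (CPM per kilobase). In resting CCR2+ve monocytes the mean level fell from Cd74 (612) through H2-DMa (112), H2-Ab1 (88.1), H2-DMb1 (76.4), H2-Eb1 (29.7) and H2-Aa (28.8) to H2-Oa (1.15) and Ciita (0.669). Cd74 stood apart, since its lowest library (359) was above the highest of any other member (167, H2-Ab1). H2-DMa and H2-Ab1, H2-Ab1 and H2-DMb1, H2-Eb1 and H2-Aa, and H2-Oa and Ciita were neighbours whose libraries overlapped. In inflamed CCR2+ve monocytes Cd74 was again first (1530), followed by H2-DMb1 (164), H2-DMa (123), H2-Ab1 (101), H2-Aa (56.8), H2-Eb1 (33.1), Ciita (4.39) and H2-Oa (0.726). Here too the libraries of H2-DMb1, H2-DMa and H2-Ab1 overlapped, as did those of H2-Ab1 and H2-Aa and of H2-Aa and H2-Eb1. Ciita and H2-Oa exchanged places without overlap, with Ciita at 1.49 to 8.23 and H2-Oa at 0.489 to 1.04 CPM per kilobase. Resting CCR1/2+ve monocytes had mean levels of 106 for Cd74, 80.2 for H2-DMa, 54.1 for H2-DMb1, 16.2 for H2-Ab1, 5.8 for H2-Eb1, 5.34 for H2-Aa, 1.29 for H2-Oa and 0.129 for Ciita. The libraries of Cd74 and H2-DMa overlapped there, as did those of H2-Ab1, H2-Eb1 and H2-Aa. In inflamed CCR1/2+ve monocytes the means were 557 for Cd74, 116 for H2-DMb1, 108 for H2-DMa, 17.5 for H2-Ab1, 15.1 for H2-Aa, 8.72 for H2-Eb1, 0.839 for Ciita and 0.693 for H2-Oa, with overlap between H2-DMb1 and H2-DMa, between H2-Ab1 and H2-Aa, and between Ciita and H2-Oa.

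The first question was whether the 2 resting populations differ in class II expression. Genes of the I-A chains, the I-E β chain, the invariant chain and the transactivator had levels 4.82 to 5.5 times lower in CCR1/2+ve than in CCR2+ve monocytes. Of these, H2-Eb1 did not pass the test. H2-DMa and H2-DMb1 were only 1.33 and 1.34 times lower, and H2-Oa overlapped between the populations. Of the 8 members, 4 were called lower, at an edgeR adjusted p below 0.05 and a log2 fold change of at least 1, and 0 were called higher. Over all 18652 genes tested, 1.9% were called lower and 2.34% higher. All 8 members passed the filter of a mean of 1 read per library. Their median log2 fold change was -2.28, and that of all genes tested was 0.03.

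The counts of H2-Aa were 42.5, 11.6, 10.7 and 16.3 CPM in resting CCR1/2+ve replicates 1 to 4, and 212, 55.5, 51 and 119 CPM for the CCR2+ve replicates. H2-Ab1, its partner, was at 83.8, 28.5, 19.5 and 34.5 CPM against 430, 124, 110 and 241 CPM. The groups did not overlap for either gene, and replicate 1 was the highest library of both populations. The log2 fold change was -2.35 (SE 0.65, edgeR adjusted p = 0.0459) for H2-Aa and -2.36 (SE 0.62, edgeR adjusted p = 0.0381) for H2-Ab1. H2-Eb1 had nearly the same fold change, -2.27 (SE 0.71), from 21.9, 6.83, 4.85 and 11.6 CPM against 118, 23.9, 22 and 66.3 CPM. Its highest CCR1/2+ve library and its lowest CCR2+ve library were almost level, and it was not called (edgeR adjusted p = 0.0688). Without TMM scaling these groups overlapped, with CCR1/2+ve libraries up to 26.4 and CCR2+ve libraries from 22.3 reads per 1000000.

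Cd74 had the smallest adjusted p among the members called. It was at 305, 122, 125 and 158 CPM in resting CCR1/2+ve libraries and at 1690, 602, 637 and 1180 CPM in CCR2+ve libraries, which gave a log2 fold change of -2.46 (SE 0.45, edgeR adjusted p = 0.0081). Ciita, the transactivator, was at 2.14, 1.71, 0.391 and 0.678 CPM against 14.2, 4.41, 3.28 and 3.61 CPM, with a log2 fold change of -2.28 (SE 0.61, edgeR adjusted p = 0.0258). Its counts were small, with 10 to 65 reads per library in CCR1/2+ve monocytes. The ratio of same-numbered libraries was steady for Cd74, at -2.47, -2.31, -2.35 and -2.9 on the log2 scale, and less so for Ciita, at -2.68, -1.33, -2.83 and -2.28.

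The peptide exchange genes behaved differently. H2-DMa was at 265, 252, 287 and 302 CPM in resting CCR1/2+ve libraries and at 398, 362, 379 and 407 CPM in CCR2+ve libraries. H2-DMb1 was at 91.7, 84.9, 88 and 99 CPM against 139, 115, 121 and 139 CPM. Both were lower in every CCR1/2+ve library and passed the adjusted p but not the fold limit, at -0.41 (SE 0.07, edgeR adjusted p = 0.00208) for H2-DMa and -0.42 (SE 0.08, edgeR adjusted p = 0.0039) for H2-DMb1. H2-Oa, the restraining chain, was near the limit of detection, at 1.55, 2.17, 2 and 1.57 CPM against 1.04, 1.87, 1.17 and 2.36 CPM, and its log2 fold change of 0.26 (SE 0.31) was within the spread of the libraries (edgeR adjusted p = 0.644). An exact permutation test of single genes, two-sided, gave p = 0.0286 for each of the 7 members other than H2-Oa, which is the smallest value that 4 against 4 allows, and p = 0.514 for H2-Oa. The share of all genes whose groups lie apart in this way is not given here, so the count of members is a description only.

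Same-numbered resting libraries deviated together, and with the replicate number as a block H2-Eb1 also passed (log2 fold change -2.18, edgeR adjusted p = 2.64e-09), giving 5 members called. Without a block the calls depended on single libraries: leaving out CCR1/2+ve replicate 2 or 4, or CCR2+ve replicate 1, left 1 member called (Cd74), leaving out CCR1/2+ve replicate 3 or CCR2+ve replicate 4 left 2 (Cd74 and Ciita), and leaving out CCR2+ve replicate 3 left 3, without H2-Aa. Leaving out replicate 1 of both populations, an alternative added after the data were seen, gave 5, with H2-Eb1 at an edgeR adjusted p of 0.0362. With no library left out and no block, H2-Eb1 was also called by DESeq2 (-2.27, DESeq2 adjusted p = 0.00806). So it was by edgeR with the filterByExpr count filter (-2.24, edgeR adjusted p = 0.0341) and with all 19 libraries in 1 fit (-2.35, edgeR adjusted p = 0.0161).

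**Figure D3:**
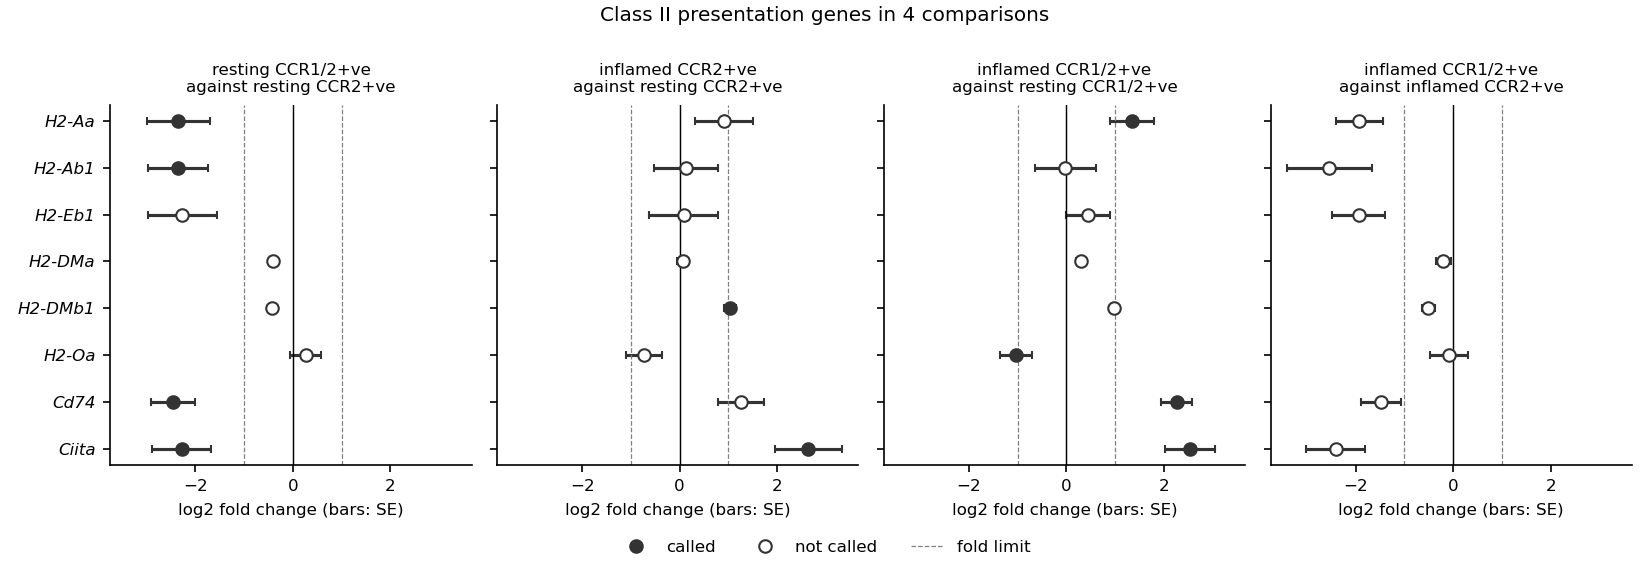
Log2 fold changes of the 8 class II presentation genes in 4 comparisons, with standard errors as bars, filled points for genes called and open points for genes not called, and dashed lines at the fold limit of 1. In both comparisons of CCR1/2+ve with CCR2+ve monocytes the chains, Cd74 and Ciita lie between -1.48 and -2.54, and the H2-DM genes between -0.2 and -0.51.

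Of the 30 other genes of the class II pathway that could be tested, 0 were called higher and 3 lower in the resting comparison, with a median log2 fold change of -0.34. Irf4, a lymphoid and myeloid transcription factor, had 2.39 ± 0.442 CPM in CCR1/2+ve libraries against 16.4 ± 2.24 CPM (SD, n = 4 each) in the CCR2+ve ones, a log2 fold change of -2.69 (SE 0.17, edgeR adjusted p = 1.51e-05). The costimulatory receptor Cd40 was at 11 ± 2.2 against 30.3 ± 7.96 CPM (log2 fold change -1.39, edgeR adjusted p = 0.000392), and Lgmn, an endosomal protease, at 76.8 ± 13.7 against 173 ± 30.5 CPM (log2 fold change -1.1, edgeR adjusted p = 0.000279). Without CCR2+ve replicate 2, 5 of the pathway genes were called.

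Markers of other cell types also differed between the resting populations, in both directions. In bulk libraries fewer cells of a type and less RNA per cell cannot be told apart. Of 12 dendritic cell markers, 6 were called lower and 0 higher in resting CCR1/2+ve monocytes, and their summed level was 89.5 to 122 CPM against 232 to 344 CPM in CCR2+ve monocytes. Cd209a, a marker of monocyte-derived dendritic cells, was at 6.26 to 26.6 CPM against 65.4 to 137 CPM, and Flt3, the receptor for the dendritic cell growth factor FLT3L, at 3.39 to 6.63 against 22 to 50 CPM. The conventional dendritic cell markers Xcr1, Zbtb46 and Clec9a were at or below 2.09 CPM in every resting library. Of 8 B cell markers, 1 was called higher (Cd79a) and 0 lower. Their summed level was 593 to 717 against 762 to 1010 CPM and came mostly from Ighm, while Ms4a1 and Pax5 were at or below 1.71 CPM in every resting library. Of 8 tissue macrophage markers, 5 were called higher and 0 lower in CCR1/2+ve monocytes, with a summed level of 210 to 288 against 266 to 385 CPM. The sum came mostly from Adgre1, at 184 against 314 CPM (edgeR adjusted p = 0.00162, under the fold limit). Vcam1, 1 of the 5 called higher, was at 26.2 against 1.69 CPM. Of 9 monocyte markers 2 were called lower (Cx3cr1 and Fcgr1), and their sum was 26500 to 38300 against 40200 to 45100 CPM. The part of these cells in the class II difference was not tested.

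The second question was how the cytokine pump changed class II expression in CCR2+ve monocytes. Ciita and H2-DMb1 rose, while H2-Ab1, H2-Eb1 and H2-DMa had log2 fold changes of 0.13, 0.08 and 0.06 that did not pass. The call of Ciita was lost with the replicate number as a block (edgeR adjusted p = 0.135), although the numbers do not pair these libraries. Of the 8 members 2 were called higher and 0 lower, where 9.37% of all genes were called higher and 19.2% lower. The median log2 fold change of the members was 0.52 and that of all genes was -0.1. The resting CCR2+ve libraries used here are those of the resting comparison, so the 2 sets of values are not independent. All inflamed libraries differ from all resting ones by the pump and by anything else that separated the preparations, which cannot be told apart.

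Ciita was at 14.2, 37.4, 78.5 and 37.3 CPM in inflamed CCR2+ve replicates 1 to 4, against 14.2, 4.41, 3.28 and 3.61 CPM at rest. The lowest inflamed library was level with the highest resting one, which lay above it without TMM scaling (13.2 against 15.2 reads per 1000000), and the log2 fold change was 2.64 (SE 0.69, edgeR adjusted p = 0.016). H2-DMb1 was at 210, 275, 320 and 295 CPM, all above the resting range of 115 to 139 CPM, a log2 fold change of 1.03 (SE 0.13, edgeR adjusted p = 1.01e-05). H2-DMa, which encodes the partner chain, was at 360, 415, 522 and 396 CPM, with a log2 fold change of 0.06 (SE 0.12, edgeR adjusted p = 0.693).

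Cd74 was at 1150, 2560, 3980 and 2610 CPM in the inflamed libraries, and only replicate 1 lay within the resting range of 602 to 1690 CPM. Its log2 fold change of 1.26 (SE 0.47) did not pass (edgeR adjusted p = 0.0617), and it was called without inflamed replicate 1 (1.5, edgeR adjusted p = 0.00892) or without resting replicate 1 (1.68, edgeR adjusted p = 0.0128). With no library left out, DESeq2 also called Cd74 (1.29, DESeq2 adjusted p = 0.0185). So did edgeR with its filterByExpr count filter (1.24, edgeR adjusted p = 0.0149) and with all 19 libraries in 1 fit (1.33, edgeR adjusted p = 0.0129). RLE size factors, a replicate block or no count filter left Cd74 uncalled. H2-Aa was at 85.7, 265, 344 and 169 CPM, overlapping the resting range of 51 to 212 CPM (log2 fold change 0.91, SE 0.6, edgeR adjusted p = 0.267). H2-Ab1 was at 105, 251, 550 and 135 CPM (0.13, SE 0.66, edgeR adjusted p = 0.903) and H2-Eb1 at 25.4, 91.7, 103 and 36.8 CPM (0.08, SE 0.7, edgeR adjusted p = 0.948). Replicate 1 was thus the lowest inflamed CCR2+ve library for all 3 chains, for Cd74 and for Ciita. H2-Oa was at 1.46, 1.12, 0.822 and 0.688 CPM, and its log2 fold change was -0.73 (SE 0.37, edgeR adjusted p = 0.122). H2-DMb1 fell below the fold limit when inflamed replicate 3 (0.95) or 4 (0.98) was left out.

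In CCR1/2+ve monocytes the pump went with higher Cd74, Ciita and H2-Aa and lower H2-Oa. Of the 8 members 3 were called higher and 1 lower, where 9.16% of all genes were called higher and 19.4% lower. The members' median log2 fold change was 0.71 against -0.25 over all genes. The resting CCR1/2+ve libraries are again shared with the resting comparison.

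Cd74 was at 862, 1070 and 880 CPM in inflamed CCR1/2+ve replicates 2 to 4, well above the resting 122 to 305 CPM, a log2 fold change of 2.26 (SE 0.32, edgeR adjusted p = 0.000324). Ciita was at 7.56, 10.5 and 5.89 CPM against 0.391 to 2.14 CPM at rest (2.53, SE 0.51, edgeR adjusted p = 0.00252). Neither gene's groups overlapped. H2-Aa was at 58.1, 62.8 and 50.6 CPM against 10.7 to 42.5 CPM, a log2 fold change of 1.35 (SE 0.45, edgeR adjusted p = 0.0363). H2-Ab1, which encodes the other chain of I-A, was at 13.8, 47.4 and 73.4 CPM, with 1 library below the resting range of 19.5 to 83.8 CPM and the others inside it, and had a log2 fold change of -0.02 (SE 0.63, edgeR adjusted p = 0.986). H2-Eb1 was at 15.9, 18.1 and 16.9 CPM, inside the resting range of 4.85 to 21.9 CPM (0.45, SE 0.45, edgeR adjusted p = 0.459).

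H2-DMb1 was at 200, 202 and 184 CPM against 84.9 to 99 CPM at rest, and its log2 fold change of 0.97 (SE 0.08, edgeR adjusted p = 2.27e-06) was just under the fold limit. H2-DMa rose less, to 330, 441 and 347 CPM from 252 to 302 CPM (0.3, SE 0.11, edgeR adjusted p = 0.0377), also under the limit. H2-Oa was at 1.07, 0.849 and 1.01 CPM against 1.55 to 2.17 CPM, a log2 fold change of -1.03 (SE 0.33, edgeR adjusted p = 0.0223) that rests on 17 to 23 reads per inflamed library. Exact two-sided permutation p was 0.0571, the smallest that 3 against 4 allows, for each of the 6 members whose groups did not overlap, which leaves out H2-Ab1 and H2-Eb1. Here too the share of all genes without overlap is not given. Without TMM scaling the groups of H2-Aa and H2-DMa overlapped too. The count of 4 members fell to 2 without resting CCR1/2+ve replicate 2 or inflamed CCR1/2+ve replicate 3, where H2-Aa and H2-Oa were lost. H2-Aa was also lost without resting replicate 3 (edgeR adjusted p = 0.103) or 4 (0.0863) or inflamed replicate 2 (0.0994). Without resting replicate 1 the count was 6, with H2-Eb1 (1.05) and H2-DMb1 (1.03) added. The direction of H2-Oa held under every scaling, but its fold change was -0.94 with RLE size factors and -0.9 with all 19 libraries in 1 fit, below the limit in size.

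Partner chains did not keep the same balance. Per kilobase, H2-Ab1 was 2.69 to 3.65 times as abundant as H2-Aa in the 8 resting libraries. In inflamed CCR2+ve replicates 1 to 4 the ratio was 1.81, 1.4, 2.36 and 1.18, and in inflamed CCR1/2+ve replicates 2 to 4 it was 0.35, 1.11 and 2.14, all below the resting range. H2-DMb1 per H2-DMa was 0.63 to 0.717 in the resting libraries, 1.2 to 1.53 in inflamed CCR2+ve and 0.939 to 1.24 in inflamed CCR1/2+ve libraries. Both ratios were chosen after the levels had been seen and are given without a test.

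**Figure D4:**
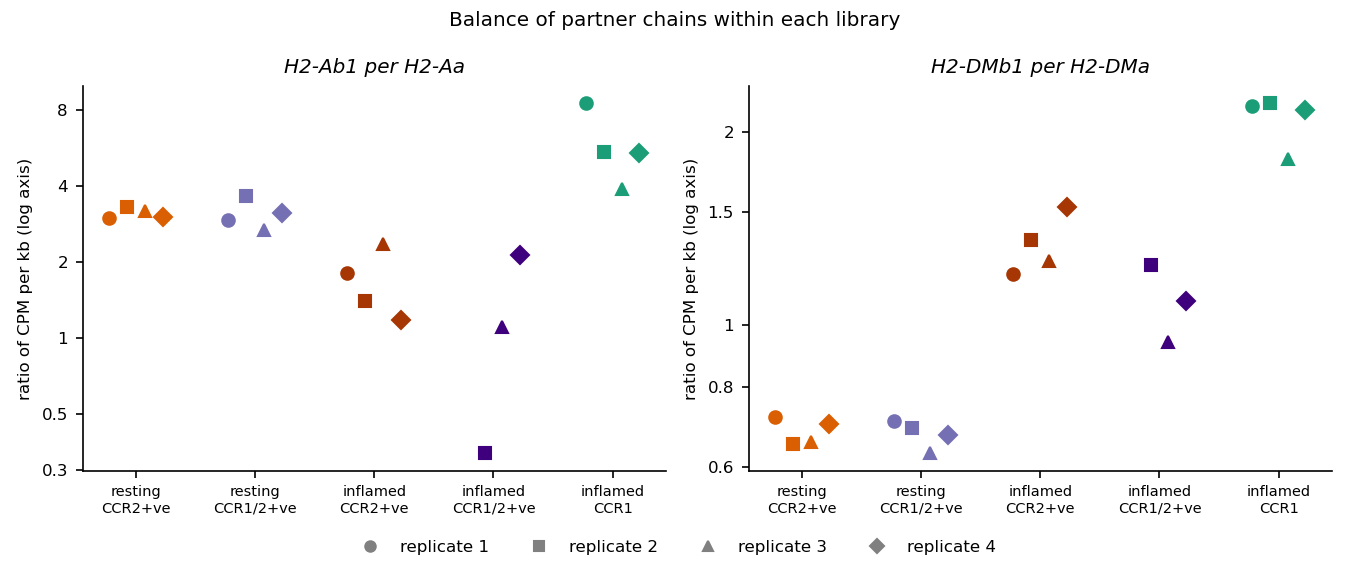
Ratio of H2-Ab1 to H2-Aa (left) and of H2-DMb1 to H2-DMa (right) within each library, in CPM per kilobase on log axes, with a marker shape for each replicate number. The 8 resting libraries lie between 2.69 and 3.65 on the left and between 0.63 and 0.717 on the right, and the 7 inflamed CCR2+ve and CCR1/2+ve libraries lie below and above those ranges, respectively.

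The fold change with the pump was not shown to differ between the populations for any member. The interaction term called 0 of the 8 members at the 2 limits, and at an unadjusted p below 0.05 it also gave 0. It called 0.214% of all genes, and DESeq2 called 0 members as well. The largest member estimate was that of Cd74, a rise greater by 0.97 on the log2 scale in CCR1/2+ve monocytes (SE 0.61, edgeR adjusted p = 0.545), and Ciita differed by -0.15 (SE 0.93, edgeR adjusted p = 0.989). Of the other pathway genes Irf4 was called, with a log2 fold change of 1.85 (SE 0.25) in CCR1/2+ve and 0.37 (SE 0.14) in CCR2+ve monocytes and a difference of 1.43 (SE 0.26, edgeR adjusted p = 0.0273).

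The other pathway genes were called in both directions with the pump, where 9.37% of all genes were called higher and 19.2% lower in CCR2+ve, and 9.16% and 19.4% in CCR1/2+ve monocytes. In CCR2+ve monocytes 3 were called higher (Ctsd, Icosl and Lgmn) and 5 lower (Spi1, Irf8, Nfyc, Rfx5 and H2-Ob), and in CCR1/2+ve monocytes 5 were called higher (Lgmn, Icosl, Ctsd and Irf4 among them) and 4 lower (Spi1, Nfyc, Irf8 and Rfx5), of 30 tested in each. Of 6 processing genes tested 2 rose and 0 fell in each population. In CCR2+ve monocytes Ctsd, which encodes cathepsin D, went from 179 to 560 CPM (log2 fold change 1.58, SE 0.12, edgeR adjusted p = 4.31e-08) and Lgmn from 173 to 437 CPM (1.27, SE 0.13, edgeR adjusted p = 7.24e-07). Icosl, a costimulatory ligand, went from 40.9 to 113 CPM (1.39, SE 0.12, edgeR adjusted p = 1.94e-07). Among 12 transcription factors of the pathway 4 fell and 0 rose in CCR2+ve monocytes, and 4 fell and 2 rose in CCR1/2+ve monocytes. Rfx5, a subunit of the X box complex, went from 8.39 to 1.63 CPM (-2.42, SE 0.24, edgeR adjusted p = 6.03e-07), and Nfyc, a subunit of the Y box complex, from 57.2 to 19.9 CPM (-1.59, SE 0.12, edgeR adjusted p = 4.22e-08). Spi1, which encodes PU.1, went from 735 to 38.1 CPM (-4.34, SE 0.11, edgeR adjusted p = 2.95e-12) and Irf8 from 485 to 87.3 CPM (-2.54, SE 0.16, edgeR adjusted p = 3.89e-09). Rfx5, Nfyc, Spi1 and Irf8 were at 1.67, 19, 33.9 and 79.8 CPM in inflamed CCR1/2+ve libraries. In the inflamed CCR1 libraries they were at 1.7, 19, 24.2 and 10.4 CPM. These low levels were thus shared by all inflamed groups, and the cause was not tested. In CCR2+ve monocytes Ciita was thus higher with the pump, while Rfx5 and Nfyc, which encode partners of its product, were lower. The other partner genes were mixed. Rfxank went from 16.6 to 25.4 CPM (0.54, edgeR adjusted p = 0.00205, under the fold limit). Creb1 was slightly lower (-0.27, edgeR adjusted p = 0.0371), and Nfya (-0.19), Nfyb (0.04) and Rfxap (-0.64) did not pass the adjusted p.

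Dendritic cell markers moved in both directions with the pump. Cd209a was at 0.531 to 4.79 CPM in inflamed CCR2+ve libraries, against 65.4 to 137 CPM at rest (log2 fold change -5.06, SE 0.55, edgeR adjusted p = 7.34e-05), and Flt3 at 1.59 to 3.83 against 22 to 50 CPM (-3.73, SE 0.3, edgeR adjusted p = 1.19e-07). In CCR1/2+ve monocytes Cd209a went from 6.26 to 26.6 CPM at rest to 0.35 to 1.23 CPM (-4.33, SE 0.67, edgeR adjusted p = 0.000638). Itgax, which encodes CD11c, was higher in both, at 4.38 against 1.34 CPM in CCR2+ve (1.61, SE 0.51, edgeR adjusted p = 0.0172) and 1.74 against 0.318 CPM in CCR1/2+ve monocytes (2.31, SE 0.68, edgeR adjusted p = 0.0153). Clec10a, a lectin of dendritic cells and macrophages, was at 90.3 against 41.5 CPM in CCR2+ve (1.05, SE 0.12, edgeR adjusted p = 3.54e-06) and at 60.9 against 28.6 CPM in CCR1/2+ve monocytes (0.96, SE 0.1, edgeR adjusted p = 1.32e-05, under the fold limit). Over the whole list of 12, 2 markers were called higher and 8 lower in CCR2+ve, and 1 higher and 4 lower in CCR1/2+ve monocytes. Their summed level was 172 to 219 CPM in inflamed CCR2+ve and 144 to 153 CPM in inflamed CCR1/2+ve libraries, against 232 to 344 and 89.5 to 122 CPM at rest, so that the sum was lower in the first population and higher in the second, without overlap. Of 8 neutrophil markers 4 were called higher and 0 lower in CCR2+ve and 6 higher and 0 lower in CCR1/2+ve monocytes, with sums of 1600 to 1780 CPM against 660 to 961 CPM at rest, and of 2400 to 2860 CPM against 535 to 793 CPM. Of 8 B cell markers 1 was called lower in each population (Ebf1 and Pax5, respectively), and they summed to 908 to 1690 and 955 to 1660 CPM in the 2 inflamed groups, with Ms4a1 at or below 0.703 CPM. The part of dendritic cells, B cells and neutrophils in these differences was not tested.

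**Figure D5:**
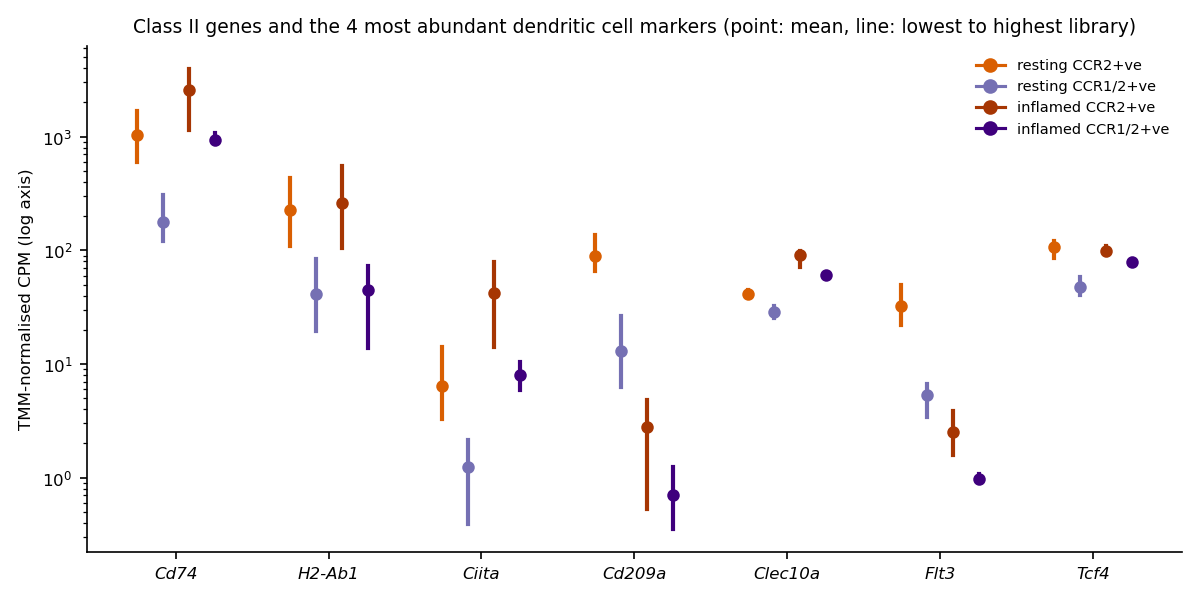
Levels of Cd74, H2-Ab1 and Ciita beside the 4 most abundant of the 12 dendritic cell markers (Cd209a, Clec10a, Flt3 and Tcf4) in 4 groups, in TMM-scaled CPM on a log axis, with the mean as a point and a line from the lowest to the highest library (n = 4, 4, 4 and 3 in the order of the legend). At rest all 7 genes have lower means in CCR1/2+ve monocytes, and with the pump Cd209a and Flt3 are lower in both populations, Clec10a is higher in both, and Tcf4 is at 97.7 against 107 CPM in CCR2+ve and 78.7 against 47.3 CPM in CCR1/2+ve monocytes.

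Between the inflamed populations, all 8 members had lower estimates in CCR1/2+ve than in CCR2+ve monocytes, but none passed edgeR's limits without a block. With the replicate number as a block, 3 were called (H2-Aa, Cd74 and Ciita). Same-numbered libraries deviated together here for replicates 2 and 3 (r = 0.35 and 0.5) but not for replicate 4 (r = -0.31). The calls over all genes were few here, at 0.102% higher and 0.0429% lower (19 and 8 genes), and DESeq2 called 44 higher and 62 lower. At an unadjusted p below 0.05 edgeR gave 6 of the 8 members, H2-Oa and H2-DMa excepted. The share of all genes at that unadjusted limit is not given here, and the 0.102% and 0.0429% do not stand for it. At the adjusted limits DESeq2 called 4 members (H2-Aa, H2-Eb1, Cd74 and Ciita). Leaving out inflamed CCR2+ve replicate 1 gave 3 calls by edgeR, of Cd74 (-1.72, adjusted p = 0.00697), H2-Aa (-2.2, adjusted p = 0.0114) and Ciita (-2.7, adjusted p = 0.0389). The members' median log2 fold change was -1.71, with -0.03 over all genes.

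The inflamed CCR1/2+ve and CCR2+ve libraries did not overlap for the 3 chains, Cd74, Ciita or H2-DMb1. Cd74 was at 862 to 1070 CPM against 1150 to 3980 CPM, a log2 fold change of -1.48 (SE 0.41, edgeR adjusted p = 0.362). Ciita was at 5.89 to 10.5 against 14.2 to 78.5 CPM (-2.41, SE 0.6, edgeR adjusted p = 0.301), and H2-Aa at 50.6 to 62.8 against 85.7 to 344 CPM (-1.93, SE 0.48, edgeR adjusted p = 0.305). H2-Eb1 was at 15.9 to 18.1 against 25.4 to 103 CPM (-1.94, SE 0.55, edgeR adjusted p = 0.369), and H2-Ab1 at 13.8 to 73.4 against 105 to 550 CPM (-2.54, SE 0.87, edgeR adjusted p = 0.471). With 3 libraries against 4 the smallest exact two-sided permutation p is 0.0571, which these 6 members reached. The share of all genes that reached it is not given here. H2-DMb1 (-0.51, SE 0.14, edgeR adjusted p = 0.226) and H2-DMa (-0.2, SE 0.15, edgeR adjusted p = 0.728) again had the small differences, and H2-Oa was level (-0.08, SE 0.39, edgeR adjusted p = 0.985). Of the other pathway genes Irf4 was called lower, at 9.45 ± 2.46 (SD, n = 3) against 22.3 ± 2.39 CPM (SD, n = 4), a log2 fold change of -1.25 (SE 0.2, edgeR adjusted p = 0.0244). That call was lost without inflamed CCR1/2+ve replicate 2 or 4 or inflamed CCR2+ve replicate 2 or 3, each of which left 0 pathway genes called. Dendritic cell markers summed to 144 to 153 against 172 to 219 CPM, and 2 of 8 neutrophil markers (Ngp and Camp) were called higher.

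In the libraries labelled inflamed CCR1 Ciita was near the floor of detection and the other members were lower than in the other inflamed groups. All 8 members were called lower than in inflamed CCR2+ve and lower than in inflamed CCR1/2+ve monocytes, in comparisons where 16.8% and 14.6% of all genes were called lower, and 14.4% and 13.2% higher. The members' median log2 fold changes were -6.56 and -4.34, and those of all genes -0.01 and 0. The 2 comparisons share the CCR1 libraries.

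Cd74 was at 12.6, 11.4, 6.33 and 17.2 CPM in inflamed CCR1 replicates 1 to 4, below inflamed CCR2+ve monocytes by a log2 fold change of -7.75 (SE 0.57, edgeR adjusted p = 1.56e-05). H2-Aa was at 0.681, 0.993, 1.15 and 1.18 CPM (-7.74, SE 0.56, edgeR adjusted p = 8.04e-06) and H2-Eb1 at 0.363, 0.271, 0.831 and 0.518 CPM (-7, SE 0.67, edgeR adjusted p = 4.73e-05). H2-Ab1 had the smallest difference of the 3 chains, at 3.91, 3.66, 3.05 and 4.28 CPM (-6.12, SE 0.69, edgeR adjusted p = 0.000264). Ciita had 1, 1, 0 and 0 reads in the 4 libraries. Its 2 reads stood against 3616 in the inflamed CCR2+ve libraries, a ratio of 1790 at equal TMM-scaled depth with a 95% counting interval of 495 to 14800, and against 501 in the CCR1/2+ve libraries, a ratio of 344 with an interval of 94.7 to 2850. These intervals cover counting error only.

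Per kilobase the highest members here were H2-DMb1 (20.3), H2-DMa (9.76) and Cd74 (7.08), the last 2 overlapping, followed by H2-Ab1 (1.45), H2-Oa (0.31), H2-Aa (0.264), H2-Eb1 (0.255) and Ciita (0.00237). The libraries of H2-Oa, H2-Aa and H2-Eb1 overlapped. H2-DMa was at 31.4, 31.5, 39.8 and 31.8 CPM and H2-DMb1 at 33.7, 34.1, 35.2 and 33.6 CPM, with log2 fold changes against inflamed CCR2+ve monocytes of -3.65 (SE 0.14, edgeR adjusted p = 1.01e-12) and -3 (SE 0.13, edgeR adjusted p = 7.94e-12). H2-Oa was at 0.591, 0.406, 0.277 and 0.471 CPM, 6 to 13 reads per library, and its call (-1.2, SE 0.42, edgeR adjusted p = 0.0264) was lost without CCR1 replicate 2 (adjusted p = 0.059) or 3 (adjusted p = 0.0773) or CCR2+ve replicate 1 (adjusted p = 0.0983) or 2 (adjusted p = 0.0552). Against inflamed CCR1/2+ve monocytes H2-Oa (-1.15, edgeR adjusted p = 0.0422) lost its call without any 1 of the 3 CCR1/2+ve libraries or of CCR1 replicates 2, 3 and 4, at adjusted p of 0.0641 to 0.102. Of the 30 other pathway genes tested, 17 were called lower and 1 higher (Nfyb) against inflamed CCR2+ve, and 15 lower and 0 higher against CCR1/2+ve monocytes. All 6 antigen processing genes tested were lower in both, among them Ctss, the protease that trims the invariant chain, at 14.4 against 3310 CPM (-7.84, SE 0.17, edgeR adjusted p = 1.96e-15). March1, whose product marks class II for degradation, was at 8.56 against 281 CPM (-5.03, SE 0.17, edgeR adjusted p = 4.56e-13) and Cd86 at 1.77 against 104 CPM (-5.86, SE 0.18, edgeR adjusted p = 7e-14). Cd40 had 0 reads in the CCR1 libraries and 2607 in the CCR2+ve libraries, and was at least 860-fold lower, taking 3 reads over the 4 libraries as the floor. Monocyte markers were called lower for 7 of 9 genes and neutrophil markers higher for 6 of 8 and lower for 1 (Mmp8, at 9.09 against 1040 CPM) in the same comparison, and the part of cell identity in the class II difference was not tested.

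Within groups the members varied together to different degrees. Over the deviations of the 19 libraries from their group means on the log2 scale, Pearson's r was 0.94 between H2-Aa and H2-Eb1, 0.84 between H2-Aa and Cd74, 0.77 between H2-Aa and H2-Ab1 and 0.72 between H2-Aa and Ciita. H2-DMa was less tied to Cd74 (0.25) and Ciita (0.23), and H2-Oa had negative values with each of the other 7 members, from -0.25 to -0.52. The points share libraries and depth, and the values are descriptions over 19 libraries. With Irf1, a transcription factor of the interferon response, H2-DMa gave 0.89 and Cd74 0.3, and with Cd209a H2-DMa gave 0.17 and Cd74 0.64.

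Of 11168 other genes with a mean of at least 1 CPM, those whose deviations were most like the mean of the members were Isg15 (r = 0.895), Fbxw17 (0.891), Serpina3g (0.886), Ly6i (0.872), H2-T24 (0.868) and Ifi44 (0.864). Isg15 and Ifi44 are interferon-induced genes, and H2-T24 is a class I gene of the same chromosome. Over the levels themselves, which mostly follow the gap between the inflamed CCR1 libraries and the rest, the nearest genes were Nectin1 (r = 0.99), Frmd4b (0.988), Sdc3 (0.983), Itga4 (0.982), Kmo (0.98) and Tcf4 (0.98). Tcf4, also one of the 12 dendritic cell markers, was at 47.3 ± 8.11 CPM in resting CCR1/2+ve, 107 ± 16.1 in resting CCR2+ve and 13.5 ± 1.14 in inflamed CCR1 libraries (SD, n = 4 each).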

How the data were processed

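The authors assessed reads with fastp, aligned them to GRCm38 with STAR 2.7.10a, kept unique alignments of at least 35 matched bases and deposited raw counts per gene. Of 50854 gene IDs 50744 matched a symbol, 1 deposited column matching no label was not used, and genes of chromosome 14 were not analysed here. The 18652 genes averaging 1 read or more per library were tested with edgeR 4.0.16 (R 4.3.3; quasi-likelihood, TMM, Benjamini-Hochberg adjustment) on the libraries of each comparison, without covariates. Standard errors are the fold change over the root of F. CPM were TMM-scaled over the 19 libraries, and the 2-group fits over their own libraries.

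The members, lists and tests were chosen with earlier results of these data known. Named genes are the members, at most 4 called genes per list and comparison with the smallest p, and the 6 nearest in pattern. Further names in counts of calls, and markers beside a result, were chosen after their values were seen. Alternatives were RLE size factors, DESeq2 1.42.0, other filters, 1 fit of all libraries, a replicate block, no fold limit and each library left out. Same-numbered libraries deviated together over 7685 genes in 4 pairs of resting libraries (r = 0.31 to 0.61) and of inflamed CCR1 and CCR2+ve libraries (0.13 to 0.25), so the numbers pair these as a pattern in the data. Scripts were tested on simulated counts. Of 36 pathway names 32 had a row and 30 were tested. Some genes of the lists are counted but not reported by name here.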

Additional observations from a re-analysis of the deposited data

Results flagged for a closer look

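In 2 of 32 groups of 4 libraries tested, 1 library stood apart from the other 3 by Dixon's criterion, which chance does in about 1 in 20 groups. Ciita in resting CCR2+ve monocytes was at 14.2 CPM in replicate 1 and at 3.28 to 4.41 CPM in the other 3 libraries. H2-DMa in inflamed CCR1 libraries was at 39.8 CPM in replicate 3 and at 31.4 to 31.8 CPM in the others. The log2 fold change of Irf4 with the pump differed between the populations by 1.43 (edgeR interaction term, SE 0.26, adjusted p = 0.0273), being larger in CCR1/2+ve monocytes.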

How the results depend on the processing

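No member changed direction in a called result under any alternative. Of the other member fold changes under alternatives, 747 stayed on their side of the limits, 26 gained a call and 43 lost one. In the resting comparison the 4 members called became 1 without a count filter and 1 to 4 with a library left out, and the 3 pathway genes 13 without the fold limit and 2 to 5 with libraries left out. H2-Eb1 was added to the 4 members with DESeq2, with the filterByExpr count filter, with all 19 libraries in 1 fit and with a replicate block. For the pump in CCR2+ve monocytes the 2 members became 1 with a replicate block, where Ciita was lost (edgeR adjusted p = 0.135), and 1 to 3 with libraries left out, and the 8 pathway genes became 14 without the fold limit. Cd74 was added to the 2 members with DESeq2, with the filterByExpr count filter and with all 19 libraries in 1 fit. In CCR1/2+ve monocytes the 4 members ranged from 2 to 6 with libraries left out, and the 9 pathway genes became 17 without the fold limit. Between the inflamed populations the 0 members became 4 with DESeq2, 3 with a replicate block and 0 to 3 with libraries left out, and the 1 pathway gene became 2 with DESeq2, with all 19 libraries in 1 fit and with the block, and 0 to 1 with libraries left out. The cause was not tested. The replicate block changed no other count of members or pathway genes called by more than 1.5 times. Over all genes it changed some counts more. Between the inflamed populations 19 higher and 8 lower became 35 and 45, and the interaction's 17 higher and 23 lower became 36 and 41. Its numbers did not pair resting with inflamed libraries (r = -0.27 to 0.25 in CCR2+ve, 0.07 to 0.21 in CCR1/2+ve). H2-DMb1 crossed the fold limit in CCR1/2+ve monocytes with RLE size factors (1.06) and H2-Oa fell under it (-0.94), while the median of all genes moved from -0.25 to -0.17, and to -0.12 with all 19 libraries in 1 fit. H2-Oa and Ciita had the fewest reads of the members (575 and 4920 over the 19 libraries). Their standard errors were not the largest in the resting comparison, at 0.31 and 0.61 against 0.71 for H2-Eb1. Overlap of groups without TMM scaling was examined after seeing the data.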
